A study of Mus musculus with 2 samples.

Results

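Mt1, Mt2 and Slc30a1 are 3 of the 32285 genes counted in single cells from mouse tumours, and their transcripts were followed here from class to class of T cells. The 3 genes were chosen by name, with their levels in these same libraries already known, so each value is a description and none is a test. The tumours were grown from MB49, a bladder carcinoma line transplanted into C57BL/6J mice of 12 to 14 weeks, and they were collected at day 14. The labels name no other treatment. There was 1 female and 1 male library (2 in all), made with a droplet kit that reads 5' transcript ends after a sort that the labels give as viable CD4+ T cells. How many mice each library pools is not stated, and between 10000 and 20000 cells were loaded for each. With n = 1 library per sex no p-value was computed, and every interval is a 95% interval for counting error only. Intervals are exact Poisson for levels and exact Clopper-Pearson for shares of counts. Those of odds ratios and of expected shares are approximate.

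Metallothioneins are small, cysteine-rich proteins of the cytoplasm that bind zinc and copper. Slc30a1 (also called ZnT1) is the zinc exporter of the plasma membrane. When free zinc rises, the sensor MTF1 binds metal response elements in promoters and switches on metallothionein genes and Slc30a1 together. In tumours, metallothionein transcripts are known from CD8 T cells of the dysfunctional or exhausted state, which also carry inhibitory receptors such as Havcr2 (TIM-3).

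On the GRCm38 build, with the GENCODE M21 annotation, Mt1 (ENSMUSG00000031765) lies at chr8:94179082-94180327 on the + strand and has 3 exons. Mt2 (ENSMUSG00000031762) lies at chr8:94172664-94173568, also with 3 exons, and starts 6418 bases before Mt1 on the same strand. Upstream of it, in the order Mt4, Mt3, Mt2 and Mt1, are the other metallothionein genes of the cluster. Slc30a1 (ENSMUSG00000037434) lies at chr1:191906767-191913247 on the + strand, with 2 exons. The longest stretch that the Mt1 and Mt2 transcripts share is 20 bases, and the longest that Mt1 and Mt3 share is 27. Antisense genes overlap Mt2 (Gm45774) and Slc30a1 (1700034H15Rik), and the strand setting of the counting is not given in the sources used here. Gm45774 had 4 female and 6 male UMIs, and 1700034H15Rik 15 and 7.

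The promoters are shown because all 3 genes are known targets of the metal sensor. Each line gives the 250 bases before the RefSeq start on GRCm38.p6, 5' to 3' on the + strand, with metal response element cores in capitals. The cores searched were TGCACNC and TGCGCNC on both strands, so a core on the opposite strand appears reversed and complemented. The windows are chr8:94178839-94179088 for Mt1, chr8:94172368-94172617 for Mt2 and chr1:191906531-191906780 for Slc30a1.
Mt1: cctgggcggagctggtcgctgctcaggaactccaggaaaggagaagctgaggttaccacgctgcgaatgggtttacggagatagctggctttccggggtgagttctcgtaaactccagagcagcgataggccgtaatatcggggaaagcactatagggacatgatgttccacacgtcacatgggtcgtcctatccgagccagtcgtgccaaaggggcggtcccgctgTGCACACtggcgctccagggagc
Mt2: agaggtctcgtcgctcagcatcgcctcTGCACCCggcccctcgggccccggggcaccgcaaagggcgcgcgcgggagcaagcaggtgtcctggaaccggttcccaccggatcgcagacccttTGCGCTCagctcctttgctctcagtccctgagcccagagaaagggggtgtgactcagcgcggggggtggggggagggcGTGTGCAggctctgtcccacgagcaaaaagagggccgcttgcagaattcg
Slc30a1: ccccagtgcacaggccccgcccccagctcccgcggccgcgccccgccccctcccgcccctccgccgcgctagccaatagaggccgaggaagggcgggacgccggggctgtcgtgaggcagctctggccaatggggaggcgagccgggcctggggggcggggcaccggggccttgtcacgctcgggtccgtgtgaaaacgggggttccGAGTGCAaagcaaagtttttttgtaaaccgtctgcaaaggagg

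In the window of 250 bases before and 50 after the start, Mt2 held 4 metal cores, Mt1 held 3 and Slc30a1 held 2. Of 32851 RefSeq promoter windows of that length, 25.7% held at least 1 core, 7.11% at least 2, 1.97% at least 3 and 0.517% at least 4. Counted from this RefSeq start, 1 Mt1 core lies before it, from base -23 to base -17. The other 2 lie after it, at bases 3 to 9 and 21 to 27. Whether Mt1 also uses other starts was not tested, so these positions hold for this start only. The antioxidant element core TGACNNNGC, present in 12.4% of windows, was found in Mt2 (bases -79 to -71) and in Slc30a1 (bases -82 to -74). The hypoxia element core ACGTG, present in 19.6% of windows, was found in Mt1 alone among the 3 members (bases -79 to -75). A match of letters shows no binding and no use of the site.

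The female library held 3658 barcodes and 55880364 UMIs and the male library 3708 and 50946624, a UMI being 1 counted transcript molecule. Kept barcodes had 500 genes or more and no more than 10% of mitochondrial UMIs, 3468 female (median 9517 UMIs) and 3519 male (median 7880). The sort label goes against the counts, since the Cd8 class was the largest, with 2245 female and 1940 male barcodes. A Cd8 barcode had at least 2 Cd8a and Cd8b1 UMIs and no Foxp3 UMI, and was split by the presence of Havcr2. Treg barcodes (233 female, 345 male) had Foxp3 and no Cd8 UMI, other Cd4 barcodes (248 and 231) had Cd4 and neither, and keratin-positive barcodes (38 and 27) had at least 10 Krt8 and Krt18 UMIs. The T cell markers Cd3d, Cd3e, Cd3g and Trac together reached 2495 to 3732 CPM in the T cell classes, CPM being the UMIs of a gene per 1000000 UMIs of the class. The keratin-positive classes had 253 (female) and 109 CPM (male). Krt5 and Epcam were at 0 in the keratin-positive barcodes of both libraries, while Krt8 and Krt18 were found in all of them, so the class is named by its rule. The libraries shared 12 kept barcode sequences.

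Keratin-positive barcodes were the richest in metallothionein, and 11 of them (8 female, 3 male) also met a T cell rule. Those 8 female barcodes held much of the metallothionein of the smaller classes. In the female Havcr2-negative Cd8 class, 3 barcodes of 974 carried 50.5% of the Mt1 and 65.8% of the Mt2 UMIs. In the female Treg class, 2 barcodes of 233 carried 63.0% of the Mt1 and 82.6% of the Mt2 UMIs. Leaving them out, a choice made after the data were seen, changes the order of the classes, so metallothionein values are given both ways. Slc30a1 was little affected, as they held at most 3.03% of its UMIs in any T cell class.

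Mt1, the most widely detected of the 3, was high in keratin-positive barcodes, intermediate in Havcr2-positive Cd8 and Treg barcodes and low in other Cd4 barcodes. Keratin-positive barcodes reached 4737 CPM (female) and 3445 CPM (male). Havcr2-positive Cd8 barcodes had 605 CPM (595 to 615) and 426 CPM (416 to 436), or 581 and 404 CPM without keratin-positive barcodes. Treg barcodes had 1035 CPM (991 to 1081) in the female library, which became 434 CPM (404 to 466) without the 2 keratin-positive barcodes, and 316 CPM (294 to 339) in the male library. Female Treg barcodes therefore stood above Havcr2-positive Cd8 barcodes with those 2 barcodes and below them without, and male Treg barcodes stood below in either case. Havcr2-negative Cd8 barcodes had 256 CPM in the female library, 130 CPM (122 to 138) without keratin-positive barcodes, and 48.7 CPM (44.1 to 53.6) in the male library. Other Cd4 barcodes were lowest in the female library at 37.8 CPM (28.9 to 48.7). In the male library they had 57.3 CPM (45.4 to 71.5), an interval that overlaps that of the Havcr2-negative Cd8 class, and 40.5% of those UMIs came from 1 barcode.

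Mt2, the partner gene, followed the same order at lower counts. Its level was 1096 and 1112 CPM in the female and male keratin-positive barcodes. In Havcr2-positive Cd8 barcodes it was 71.6 CPM (68.3 to 75.0) and 58.0 CPM (54.3 to 61.8), or 67.3 and 52.5 CPM without keratin-positive barcodes. Treg barcodes had 189 CPM in the female library, 37.3 CPM (28.9 to 47.5) without the 2 keratin-positive barcodes, and 36.0 CPM (28.9 to 44.4) in the male library. The Treg levels of the 2 libraries thus coincide within counting error once those barcodes are out. Havcr2-negative Cd8 barcodes had 40.4 CPM in the female library, 14.2 CPM without keratin-positive barcodes, and 5.26 CPM in the male library. In other Cd4 barcodes Mt2 was close to its limit of detection, with 5 UMIs in 248 female and 3 UMIs in 231 male barcodes.

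Slc30a1 showed no such order: its levels were nearly flat over the classes of a library and separated the libraries instead. The female library had 21.1 CPM (19.3 to 23.0) in Havcr2-positive Cd8, 19.6 CPM (16.8 to 22.7) in Havcr2-negative Cd8, 16.5 CPM (11.3 to 23.1) in Treg, 18.3 CPM (12.2 to 26.3) in other Cd4 and 17.2 CPM (12.0 to 23.8) in keratin-positive barcodes. The male library had, in the same order, 9.70 CPM (8.25 to 11.3), 8.37 CPM (6.53 to 10.6), 11.05 CPM (7.28 to 16.1), 6.53 CPM (2.99 to 12.4) and 9.44 CPM (4.88 to 16.5). All 5 female intervals overlap one another, and so do all 5 male intervals. The keratin-positive barcodes, where metallothionein was highest, had Slc30a1 levels within the range of the T cell classes of the same library.

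**Figure D1:**
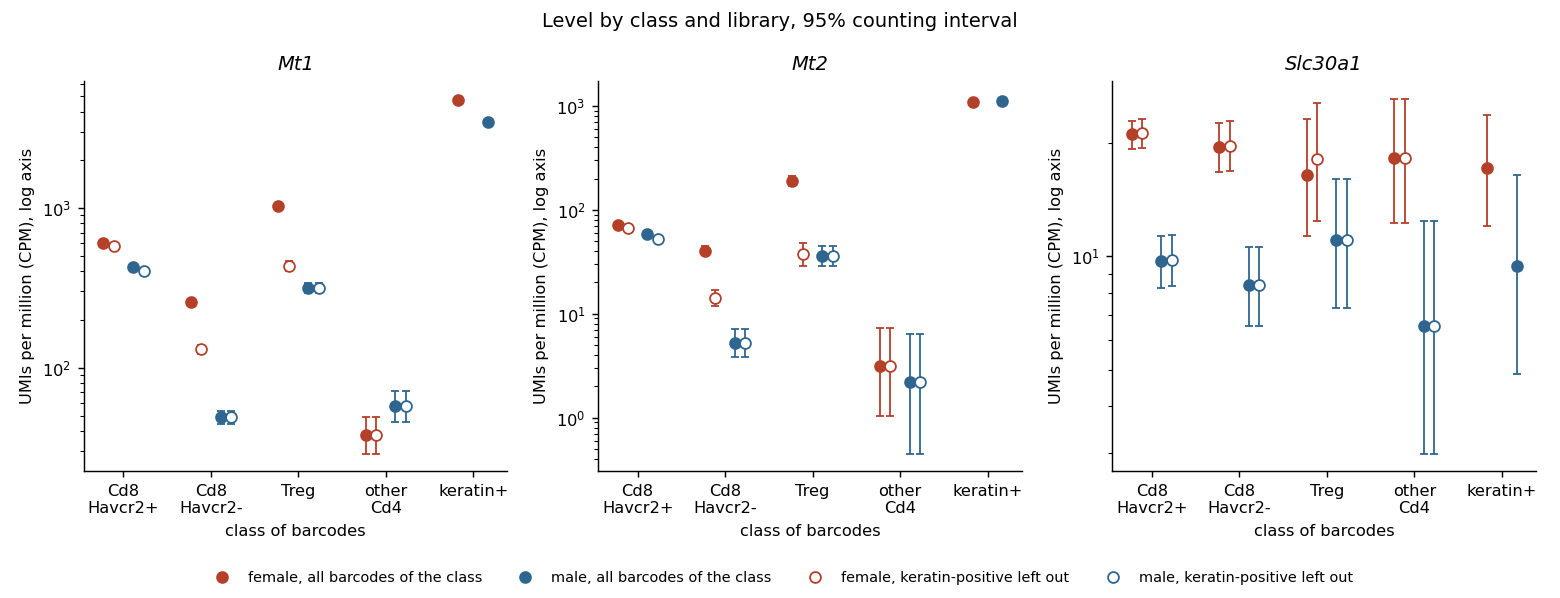
Level of Mt1, Mt2 and Slc30a1 in CPM (log axis) by class of barcodes, with female values in red, male values in blue and bars for the 95% counting interval. Filled points use all barcodes of the class and open points leave out keratin-positive ones: the female Treg value of Mt1 moves from 1035 to 434 CPM, while Slc30a1 keeps every female point above every male point.

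Detection depends on depth, so each barcode was also thinned to 2978 UMIs, which left out 266 female and 433 male barcodes that were shallower. Without keratin-positive barcodes, an Mt1 UMI was then expected in 43.3% of female and 35.0% of male Havcr2-positive Cd8 barcodes. The share was 15.1% and 6.92% in Havcr2-negative Cd8, 35.6% and 29.9% in Treg, and 5.23% and 5.55% in other Cd4 barcodes. Before thinning the shares were 65.4% and 57.8%, 24.5% and 14.1%, 46.3% and 38.6%, and 9.27% and 8.23%, at medians over all barcodes of each class of 13938 and 13040.5, 7141.5 and 6861, 6426 and 5993, and 5204.5 and 5219 UMIs. The order of the classes is the same before and after thinning, and the other Cd4 share is the lowest of the T cell classes in both libraries. Mt2 was expected in 11.7% and 8.99% of thinned Havcr2-positive Cd8 barcodes and in 0.776% and 0.607% of other Cd4 barcodes. Slc30a1 was expected in 3.85% to 6.42% of female and 2.24% to 3.51% of male barcodes over the 4 T cell classes.

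Within Havcr2-positive Cd8 barcodes Mt1 was unevenly spread. In the female library 439 of 1268 barcodes had no Mt1 UMI, 18 had at least 100 and the highest had 418. The 127 barcodes with the most Mt1 held 60.6% of its UMIs. In the male library 391 of 927 had none, the highest had 263, and the 93 barcodes with the most held 65.4%. High Mt1 was thus carried by a minority of barcodes in both libraries. Slc30a1 never exceeded 7 UMIs in a female or 5 in a male Cd8 barcode, and its median in positive barcodes was 1 UMI. The 127 female and 93 male barcodes with the most Slc30a1 held 54.1% and 76.7% of its UMIs. All of these counts are at full depth, and the part of depth in them was not tested.

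Of all genes with at least 10 CPM in 1 of the classes compared and 20 UMIs over both, 5.17% of 7732 (female) and 9.58% of 7847 (male) were higher by 1.5-fold or more in Havcr2-positive than in Havcr2-negative Cd8 barcodes. Mt1 and Mt2 were among them in both libraries and Slc30a1 in neither. The log2 ratio of Mt1 was 1.24 (1.18 to 1.30) for female and 3.13 (2.99 to 3.28) for male barcodes, and 2.16 and 3.05 without keratin-positive barcodes. The log2 ratio of Mt2 was 0.83 (0.66 to 0.99) and 3.46 (3.03 to 3.93), and 2.25 and 3.32 without keratin-positive barcodes. Without them, 15 measured genes had a larger ratio than Mt1 among female and 12 among male barcodes. The Slc30a1 ratio was 0.11 (-0.14 to 0.36) and 0.21 (-0.20 to 0.64), intervals that include no difference. In the male library Slc30a1 was under 10 CPM in both classes and is not counted among the measured genes.

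Havcr2-positive barcodes are also the deeper ones, which bears on where the split falls. Where barcodes were assigned by their chance of a Havcr2 UMI after thinning, without keratin-positive ones, the Mt1 ratio was 0.57 (female) and 0.95 (male) and the Mt2 ratio 0.53 and 0.90. With all barcodes the Mt1 ratio was 0.34 and 0.86 and the Mt2 ratio 0.15 and 0.75. The female ratios of both genes were then under 1.5-fold (0.58) either way, and the male ones above it. These are lower by construction in part, since thinning moves many barcodes with a Havcr2 UMI to the negative side. With both Havcr2 and the member read after thinning, Mt1 was in 43.0% of Havcr2-positive against 26.7% of Havcr2-negative female barcodes and in 35.5% against 15.2% of male ones. Barcodes were also grouped by their number of Havcr2 UMIs at full depth, with detection of the members thinned. These groups differed in depth, from a median of 7132 UMIs with no Havcr2 UMI to 21316 with 4 or more (female) and from 6861 to 17590 (male), and the part of depth was not tested. The share of thinned barcodes with Mt1 was 15.1% with no Havcr2 UMI, 29.5% with 1, 41.3% with 2 to 3 and 53.4% with 4 or more in the female library. In the male library it was 6.92%, 18.6%, 32.0% and 45.1%. Mt2 followed, from 3.05% to 15.1% (female) and from 1.04% to 12.0% (male). Slc30a1 stayed between 5.97% and 6.76% of female and between 1.74% and 3.59% of male barcodes, with no order over the steps.

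**Figure D2:**
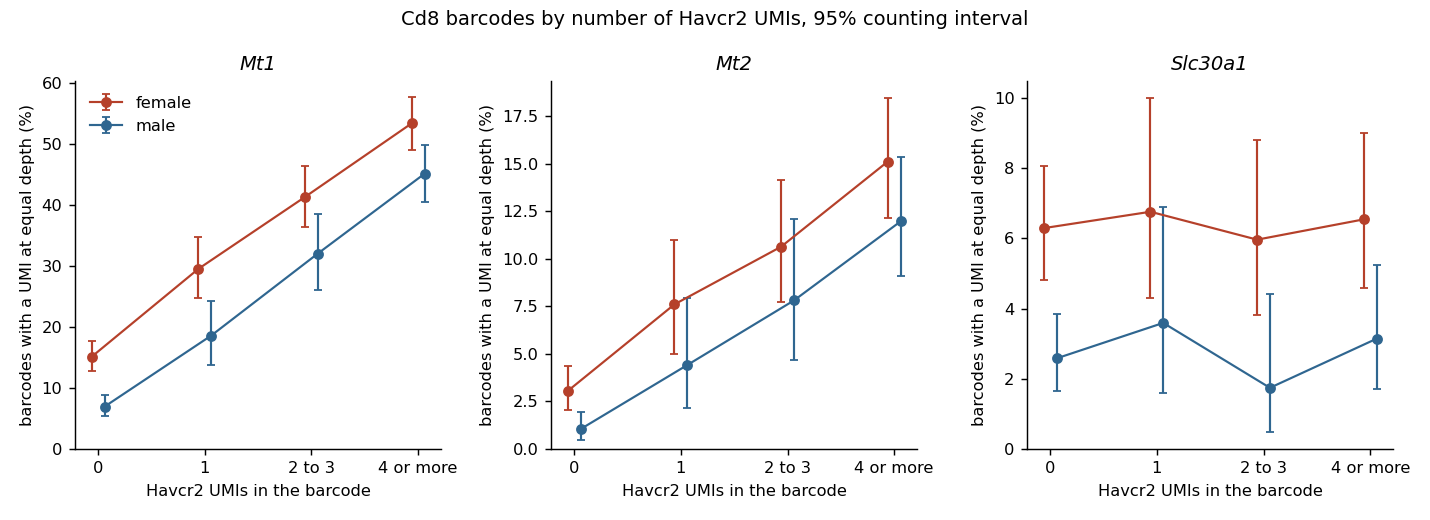
Share of Cd8 barcodes with at least 1 UMI of each gene after thinning the barcode to 2978 UMIs (percent), by the number of Havcr2 UMIs before thinning, without keratin-positive barcodes; points are the female (red) and male (blue) library and bars the 95% counting interval. The shares for Mt1 and Mt2 climb at each step in both libraries, from 15.1% to 53.4% and from 6.92% to 45.1% for Mt1, whereas those for Slc30a1 stay level; the groups differ in median depth, from 7132 to 21316 (female) and 6861 to 17590 UMIs (male).

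Splits of Cd8 barcodes by other markers of state gave the same contrast between the members, at equal depth and without keratin-positive barcodes. Among barcodes with Gzmb (granzyme B, a cytotoxic effector) the Mt1 share was 39.1% against 14.9% without it (female) and 29.7% against 6.91% (male). For Lag3, an inhibitory receptor, the shares were 40.6% against 17.7% and 30.6% against 11.1%. Barcodes with Tcf7, the transcription factor of naive and stem-like T cells, had the reverse, 10.2% against 35.8% and 6.18% against 26.2%. Pdcd1, Entpd1 and Mki67 (a proliferation marker) split Mt1 in the direction of Lag3, and Il7r (the IL-7 receptor) in that of Tcf7. Ly6c2 did not split it, at 31.6% against 31.3% and 21.3% against 20.1%. The Slc30a1 share differed by -1.54 to 1.56 percentage points over these 8 markers and Havcr2 for female and by -0.617 to 0.795 points for male barcodes.

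**Figure D3:**
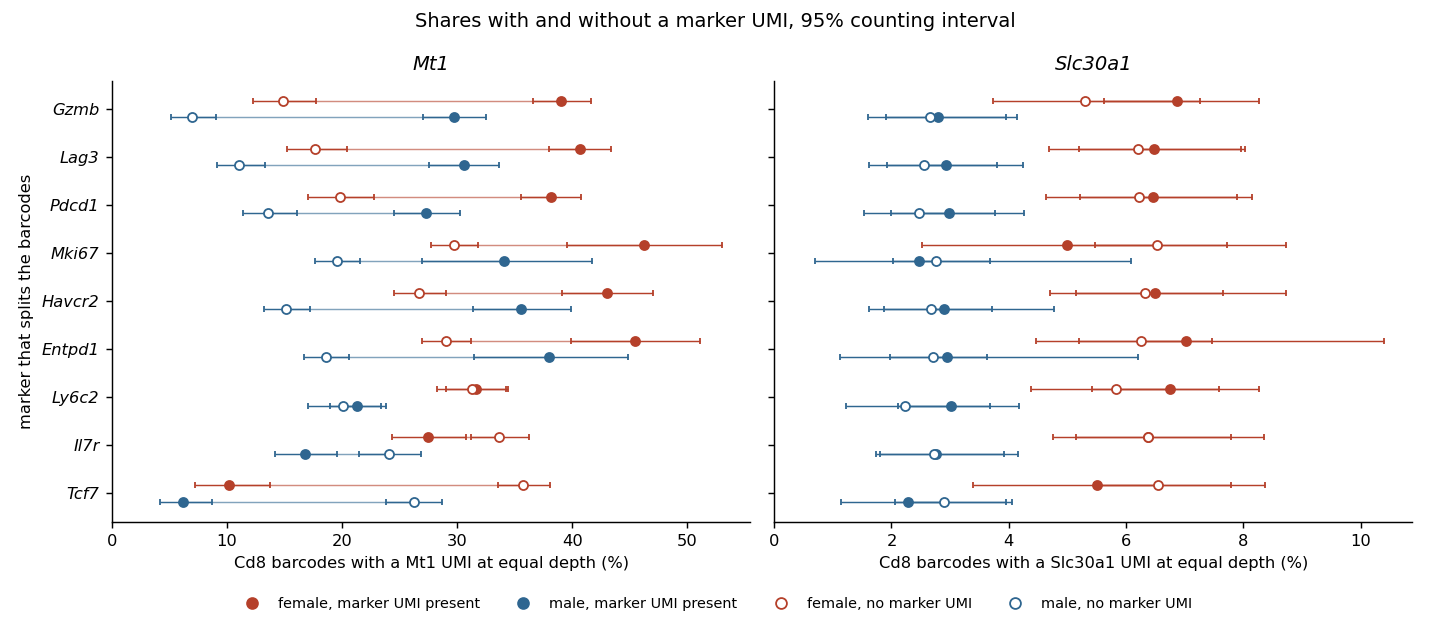
Share of Cd8 barcodes with an Mt1 (left) or Slc30a1 (right) UMI at equal depth (percent) among barcodes with (filled) and without (open) a UMI of each marker, without keratin-positive barcodes, in the female (red) and male (blue) library, with 95% counting intervals. Mt1 separates by Gzmb, Lag3 and Tcf7 and not by Ly6c2, while the filled and open Slc30a1 points of a library lie within 1.56 points of each other.

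Treg barcodes were split by markers in the same way, and their splits by Klrg1, Mki67 and Havcr2 are not described here. With Tnfrsf9 (4-1BB, a receptor of activated Treg cells) the thinned Mt1 share was 39.4% against 10.7% without it (female) and 32.1% against 8.51% (male). The intervals of the barcodes without Tnfrsf9 are wide, 2.23% to 28.3% and 1.38% to 25.1%. With Il1rl1, the IL-33 receptor ST2, the shares were lower than without it, 22.5% against 37.6% and 16.8% against 30.9%, and these intervals overlap. Ikzf2 (Helios) gave opposite directions in the libraries, 35.1% against 38.4% and 31.0% against 22.9%. In other Cd4 barcodes, those with Tcf7 had 2.21% in both libraries, against 8.25% and 9.27% without it, and those with Cd40lg (CD40 ligand) had 4.69% against 5.44% and 6.91% against 5.17%. All of these other Cd4 intervals overlap within a library.

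Mt1 and Mt2 were found in the same cells. Before thinning and without keratin-positive barcodes, 508 female and 286 male Cd8 barcodes had an Mt2 UMI, and 95.7% and 92.3% of these also had Mt1. At equal depth 84.1% of Mt2-positive and 26.8% of Mt2-negative barcodes had Mt1 in the female library, and 76.0% and 18.0% in the male library. The log2 odds ratio was 3.85 (3.25 to 4.46) and 3.85 (3.13 to 4.57). Treg barcodes gave 3.15 in each library. Detection of Mt2 alone was rare, with 13 of 1268 female and 12 of 927 male Havcr2-positive Cd8 barcodes.

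Slc30a1 had lower odds with either metallothionein than Mt1 had with Mt2, and these rest on few barcodes. After thinning, without keratin-positive barcodes, it was expected together with Mt1 in 57.1 female and 14.1 male Cd8 barcodes, and with Mt2 in 17.0 and 4.21. Its log2 odds ratio with Mt1 at equal depth was 0.68 (0.17 to 1.19) for female and 0.62 (-0.29 to 1.52) for male barcodes. With Mt2 it was 0.75 (-0.02 to 1.52) and 0.86 (-0.61 to 2.34). The direction was positive in all 4 cases, and 3 of the 4 intervals include no association. At full depth, where the unequal depth of barcodes also enters, the values were 1.72 and 1.52 with Mt1 and 1.67 and 1.82 with Mt2. Those intervals were all clear of no association. All 3 members were detected together in 180 of 1268 female and 61 of 927 male Havcr2-positive Cd8 barcodes, in 20 of 971 and 4 of 1010 Havcr2-negative ones and in 0 of 248 and 0 of 231 other Cd4 barcodes at their full depths. Slc30a1 was the only member seen in 61 and 27 Havcr2-positive and in 88 and 54 Havcr2-negative Cd8 barcodes.

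Sorted by Mt1 counts, Cd8 barcodes without keratin-positive ones showed how differently the partners scale. From 0 Mt1 UMIs through 1, 2 to 4, 5 to 19 and 20 or more, Mt2 was 2.25, 7.87, 18.5, 53.4 and 159 CPM for female and 2.03, 8.12, 16.1, 55.7 and 180 CPM for male barcodes. Slc30a1 over the same steps was 17.1, 16.8, 21.3, 22.4 and 25.9 CPM and 8.58, 5.28, 11.8, 10.0 and 11.5 CPM. The last and first female Slc30a1 steps do not overlap (22.5 to 29.6 against 14.8 to 19.7 CPM), and in the male library they do. The median depth of the barcodes moved with these steps, from 7644 to 29611 UMIs (female) and from 7071 to 32517 (male), and its part in the differences was not tested. At 20 or more Mt1 UMIs, 95.9% and 97.4% of barcodes had a Havcr2 UMI, against 37.5% and 31.1% with none.

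**Figure D4:**
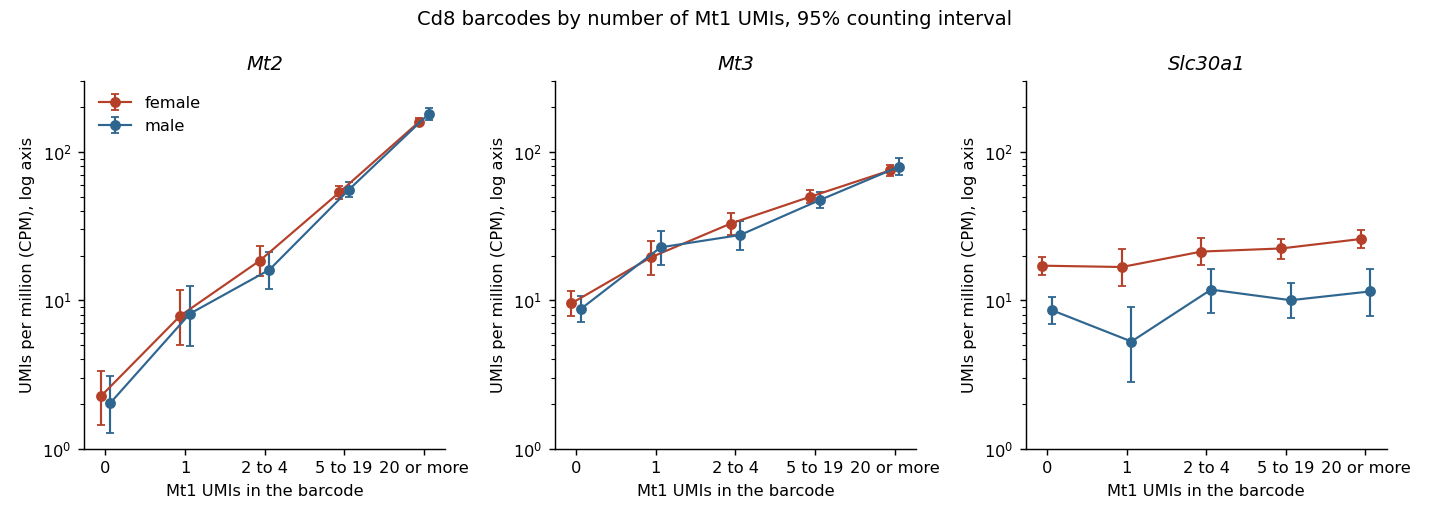
Level of Mt2, Mt3 and Slc30a1 in CPM (log axis) in Cd8 barcodes grouped by their Mt1 UMIs, without keratin-positive barcodes, in the female (red) and male (blue) library, with 95% counting intervals. Mt2 climbs from 2.25 to 159 CPM and from 2.03 to 180 CPM, and Slc30a1 moves only from 17.1 to 25.9 CPM and from 8.58 to 11.5 CPM.

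The make-up of metallothionein differed between T cells and keratin-positive barcodes. Mt1 made 81.2% (80.5 to 81.9) of Mt1 and Mt2 UMIs in female and 75.6% (74.5 to 76.7) in male keratin-positive barcodes. In Havcr2-positive Cd8 barcodes without keratin-positive ones it made 89.6% (89.1 to 90.1) and 88.5% (87.7 to 89.2), and in Treg barcodes 92.1% (90.03 to 93.8) and 89.8% (87.6 to 91.7). The ratio of Mt1 to keratin UMIs follows in part from the class rule, which counts keratin UMIs. The T cell values leave out keratin-positive barcodes, so a gap between the classes was fixed in advance. Keratin-positive barcodes had 1.23 and 0.860 Mt1 UMIs per Krt8 and Krt18 UMI, whereas Havcr2-positive Cd8 barcodes had 499 (347 to 745) and 386 (241 to 663) and male Treg barcodes 28.6 (19.5 to 43.7).

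The female library was higher than the male library for Slc30a1 in every class. The log2 ratio of female over male was 1.16 (0.94 to 1.38) in Cd8 barcodes, where 0.574% of 7667 measured genes exceeded the male level by 1.5-fold or more and 14 of them had a larger ratio. It was 1.12 (0.86 to 1.39) in Havcr2-positive and 1.23 (0.82 to 1.65) in Havcr2-negative Cd8 barcodes, against 0.509% and 1.96% of genes. In other Cd4 barcodes it was 1.49 (0.37 to 2.75), from 29 and 9 UMIs, against 8.05% of genes. In Treg barcodes it was 0.58 (-0.20 to 1.37), just short of 1.5-fold, and 0.71 (-0.07 to 1.51) without keratin-positive barcodes, against 7.3% and 4.59% of genes. In keratin-positive barcodes it was 0.86 (-0.11 to 1.94), against 10.7% of genes. The Treg and keratin-positive intervals include no difference. With equal weight for each cell the other Cd4 ratio was 0.28.

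Without keratin-positive barcodes, Slc30a1 and Mid1 were the 2 genes of 7983 (0.0251%) whose female level was 1.5-fold the male level or more in all 5 classes, among genes with a UMI in each group and at least 500 UMIs in all. Slc30a1 ranged from 0.71 to 1.49 and Mid1, a gene at the pseudoautosomal boundary of the X chromosome, from 0.81 to 1.03. With all barcodes Mid1 alone passed as higher (0.0125% of 8002 genes), because Slc30a1 in Treg barcodes fell just short. In the other direction 2 genes, Ccl4 and Klf2, were at least 1.5-fold lower in all 5 classes. They were so with all barcodes (0.025%) and without keratin-positive ones (0.0251%). This rule was chosen after the values were seen, and it leaves out genes without a UMI in any 1 group. Over the 4 T cell classes without keratin-positive barcodes, 7 of 6971 measured genes (0.1%) were at least 1.5-fold higher in each and 11 (0.158%) lower in each. The Treg ratio of Slc30a1 without keratin-positive barcodes rests on 32 female and 27 male UMIs. With 1 library per sex, the sex of the mice cannot be told apart from any other difference between the libraries.

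Mt1 and Mt2 were also higher in the female library in Cd8 barcodes, but not in every class. Their female over male log2 ratios in Cd8 barcodes were 0.78 (0.74 to 0.82) and 0.66 (0.55 to 0.77), or 0.71 and 0.55 without keratin-positive barcodes. With all Cd8 barcodes 0.574% of 7667 genes were at least 1.5-fold higher. In that comparison 24 genes had a larger ratio than Mt1 and 33 a larger ratio than Mt2. The ratios were larger in the Havcr2-negative part, at 1.42 (1.25 to 1.58) for Mt1 and 1.43 (0.92 to 1.96) for Mt2 without keratin-positive barcodes, against 0.53 and 0.36 in the Havcr2-positive part. In Treg barcodes Mt1 went from 1.71 to 0.46 and Mt2 from 2.39 to 0.053 when the 2 female keratin-positive barcodes were left out. Myeloid markers, all 8 found in female and 6 of 8 in male Treg barcodes, still stood at 243 against 36.0 CPM. Without barcodes with 3 or more UMIs of other cell types' markers, Mt1 was 0.32 and Mt2 -0.19 in Treg barcodes. In other Cd4 barcodes Mt1 was lower in the female library, at -0.60 (-1.11 to -0.10), where 7.7% of genes were at least 1.5-fold lower. Without the top barcode of each library the ratio was -0.13 (-0.74 to 0.48). Neutrophil markers (S100a8, S100a9 and Csf3r) had 220 UMIs in male and 0 in female other Cd4 barcodes, all in 1 barcode, which had 1 of the 79 male Mt1 UMIs. Leaving out barcodes with 3 or more UMIs of other cell types' markers, the ratio was -0.66. In keratin-positive barcodes Mt1 was 0.46 (0.41 to 0.51) and Mt2 -0.02 (-0.12 to 0.08).

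Among the other genes of metal handling, the metallothionein Mt3 followed Mt1 and Mt2. It had 46.4 and 40.5 CPM in Havcr2-positive and 13.4 and 7.06 CPM in Havcr2-negative Cd8 barcodes without keratin-positive ones, a log2 ratio of 1.80 and 2.52. In keratin-positive barcodes it reached 165 and 224 CPM. Mt4, a metallothionein of stratified epithelia, had no UMI in any T cell class, where a floor of 3 UMIs is 0.121 CPM in the largest and 2.18 CPM in the smallest class. Mtf1, the gene of the zinc sensor, stayed between 16.7 and 21.5 CPM over the T cell classes of both libraries.

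Of the 10 zinc exporters 4 were measured in both libraries, Slc30a1 not among them, and of the 14 zinc importers 6. None of these was at least 1.5-fold higher or lower in Havcr2-positive Cd8 barcodes in both libraries. Over all 7608 genes, 4.3% were higher in both and 4.13% lower in both, so with so few genes a count of 0 is near those shares. In the male library alone 1 of 7 measured importers was higher, beside 9.58% of 7847 genes. The median log2 ratio of the measured exporters was 0.08 (female) and 0.14 (male), beside 0.02 and 0.06 over all measured genes, and that of the importers was 0.11 and 0.21. The exporters of the secretory pathway, Slc30a5, Slc30a6 and Slc30a7, had ratios of 0.08, 0.37 and -0.26 (female) and 0.20, 0.07 and -0.10 (male) without keratin-positive barcodes. In Cd8 barcodes, Slc30a1 was the 1 exporter of 5 measured whose female level was 1.5-fold the male level or more. Slc30a7, at 27.6 and 27.7 CPM, was alike in the 2 libraries.

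Lists of pathways that are known to induce metallothionein, and lists of copper handling and of T cell state, gave mixed counts. Each count is of genes at least 1.5-fold different in both libraries out of those measured in both. Over all 7608 genes, 4.3% were higher and 4.13% lower in this sense. Of the targets of the oxidative stress factor NRF2, 3 of 8 were higher and 0 lower, with Srxn1 (sulfiredoxin) at 1.82 and 2.50, Osgin1 at 1.04 and 1.17 and Gsr (glutathione reductase) at 0.67 and 0.67 without keratin-positive barcodes. Of the glucocorticoid response genes 0 of 8 were higher and 2 lower, Tsc22d3 (GILZ) at -0.89 and -0.96 and Dusp1 (a phosphatase of MAP kinases) at -0.86 and -0.63. Of hypoxia and glycolysis genes 6 of 10 were higher and 0 lower, among them Bnip3 at 0.98 and 1.39 and Pgk1 (phosphoglycerate kinase) at 0.72 and 0.99. Of copper genes 1 of 6 was higher, Cox17 (a copper chaperone of mitochondria), at 0.74 and 1.03. The inhibitory receptor list, which is close to the Havcr2 split itself, had 5 of 10 higher, and the naive and memory list 7 of 8 lower.

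The genes closest to each member over the 8 combinations of T cell class and library, as log2(CPM + 1), differed between the members. Without keratin-positive barcodes and over 6851 genes, Mt1 was closest to Ehd4 (Pearson's r = 0.99), Gpr65 (0.99) and Uqcrb (0.98), with Mt2 at 0.97. Mt2 was closest to Rps27l, AW112010 and Erp44 (0.99 each). Slc30a1 was closest to Xist (0.94), the RNA of the inactive X chromosome, Gm47283 (0.93) and Zfp800 (0.90), and its r with Mt1 was 0.35. The 8 points share 2 libraries and their depths, so these values only describe them.

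Cd8 barcodes with an Mt1 or Mt2 UMI in 1 fixed thinning, 721 female and 373 male without keratin-positive ones, were set against those without. Of 9196 genes with at least 50 thinned UMIs in all and 20 in each library, 2.94% were at least 1.5-fold higher and 4.2% lower in both libraries. Mt3 was among the 8 highest (log2 ratio 2.14 and 2.19), with Sparc, Spp1, Adamts14, Rasal2, Adgrg1, Il1b and Filip1. In the draw that used all barcodes, only Mt3, Sparc and Spp1 of these were again among the 8 highest. Some rest on few UMIs, such as Rasal2 with 20 against 12 (female) and 15 against 11 (male). Spp1 (osteopontin) had ratios of 2.14 and 2.84. Sparc is a matrix protein and Il1b a cytokine of myeloid cells. Summed markers of myeloid cells in the T cell classes ran from 9.46 to 243 CPM and those of fibroblasts from 0.726 to 27.6 CPM, and their part in these ratios was not tested. Tcf7 was among the lowest genes (-2.34 and -2.61). Slc30a1 had 0.60 and 0.40 in this split and Mtf1 -0.25 and 0.25.

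Some barcodes met no class rule, 712 female and 979 male. Among them, 374 female and 464 male barcodes without keratin had Foxp3 and at least 2 Cd8 UMIs, at a median of 35093.5 and 35184 UMIs, several times the library medians. Mt1 had 575 and 402 CPM in them, Mt2 69.4 and 42.8 CPM, and Slc30a1 16.0 and 10.6 CPM. Without keratin-positive barcodes, Mt1 lay near its level in Havcr2-positive Cd8 barcodes (581 and 404 CPM) and above that in Treg barcodes (434 and 316 CPM). Mt2 had 67.3 and 52.5 CPM in Havcr2-positive Cd8 and 37.3 and 36.0 CPM in Treg barcodes. Slc30a1 had 21.3 and 9.78 CPM in Havcr2-positive Cd8 and 18.1 and 11.05 CPM in Treg barcodes. Whether these barcodes hold 1 cell or several was not tested.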

How the data were processed

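The deposited matrices give UMI counts of 32285 genes for every barcode. The file headers name Cell Ranger 7.0.1 as the program with which the authors counted. For GRCm38 and Seurat 5, listed in the submitters' processing notes, no use is described. Neither the gene annotation behind the counts nor the counting strand is given in the sources used here. GENCODE M21 matched 99.6% of features.

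UMIs were summed per class and library and divided by the class total (CPM), and compared as log2 ratios with exact Poisson intervals. Measured genes had 10 CPM or more in 1 group and 20 UMIs or more over both. Thinned shares are exact means over all draws to the 10th percentile of depth (2978 UMIs). Their intervals put these expected numbers, which are not whole, into the Clopper-Pearson formula. Intervals of odds ratios are normal approximations on the log scale, from expected numbers where barcodes were thinned. No doublet caller was run. Ratios were checked on simulated Poisson counts only, which do not have the uneven spread over barcodes of the real counts. Tools were Python 3.11.15, numpy 2.4.6, scipy 1.17.1, pandas 2.3.3, R 4.3.3, and edgeR 4.0.16 and DESeq2 1.42.0 for scaling factors only.

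Beside the members, genes were named by rule: zinc genes with at least 50 Cd8 UMIs, up to 4 per other list by the Havcr2 ratio, the 3 genes most alike each member, and the 8 most different by metallothionein detection. Mt4, and the genes compared over 5 classes, fall outside it and were chosen after their values were seen. The members and lists were chosen with earlier results of these data known.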

Additional observations from a re-analysis of the deposited data

How the results depend on the processing

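Over 213 alternative values of 21 results, 159 stayed inside their counting interval, 53 moved outside it and 1 was counted as a turn in direction. Turns were counted only for results that began past 1.5-fold. The female over male ratio of Mt2 in other Cd4 barcodes, 0.53 at first, also turned, to -0.06 at its lowest. Values are log2 unless said otherwise. TMM and median-of-ratios scaling moved 0 of 15 values each, and a stricter cell filter 0 of 21. Leaving out keratin-positive barcodes, added after seeing the data, gave Havcr2 ratios in the female library of 2.16 (Mt1) and 2.25 (Mt2), and female over male ratios of 0.71 (Mt1, Cd8), 0.46 (Mt1, Treg) and 0.053 (Mt2, Treg). Leaving out any barcode with a Krt8 or Krt18 UMI gave 2.17, 2.25, 0.72, 0.60 and 0.25 for the same 5. Leaving out barcodes with 3 or more UMIs of other cell types' markers gave 2.10, 2.14, 0.68, 0.32 and -0.19, the last a turn in direction, and 0.50 for Mt2 in Cd8. Leaving out the deepest barcodes, above the 90th percentile, gave female Havcr2 ratios of 1.81 and 1.67, a male Mt1 ratio of 2.90, and Treg values of 0.46 and 0.053. Without the top barcode of each gene the female Havcr2 ratios were 1.71 and 1.24 and the Treg values 1.25 and 1.56.

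With equal weight per cell the Havcr2 ratios were 1.90 and 1.74 (female Mt1 and Mt2) and 2.66 and 2.84 (male), and the female over male ratios 0.94 and 0.80 in Cd8, 0.81 and 0.71 in Treg, and 0.28 for Slc30a1 in other Cd4. Splitting by the chance of a Havcr2 UMI after thinning gave 0.34 and 0.15 (female) and 0.86 and 0.75 (male), and, with keratin-positive barcodes out (added later), 0.57, 0.53, 0.95 and 0.90. A Havcr2 minimum of 3 UMIs gave Mt1 1.40 (female) and 3.33 (male), and a Cd8 minimum of 5 gave 1.09 and 0.65 (female Mt1 and Mt2). With 2 Foxp3 or Cd4 UMIs, Treg gave 1.32 (Mt1) and 1.55 (Mt2) and other Cd4 -1.15 (Mt1). Without thinning, co-detection odds were 5.47, 1.72 and 1.66 in the female library (Mt1 with Mt2, Mt1 with Slc30a1, Mt2 with Slc30a1) and 5.18 and 1.51 for the first 2 pairs in the male library. The Slc30a1 Havcr2 ratio stayed within 0.04 to 0.21 (female) and 0.18 to 0.30 (male), and its Cd8 female over male ratio within 1.12 to 1.21. The cause of these moves was not tested.

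With no filter but 1 UMI in each group, genes past 1.5-fold went from 816 to 4620 and from 1268 to 5367 by Havcr2 (female, male), and from 149 to 3420 in Cd8, 1111 to 3534 in Treg and 1248 to 3302 in other Cd4 between libraries. Female and male could not be paired, because each sex has 1 library. The Havcr2 classes come from the same library and were compared within it. Mt2 in other Cd4 barcodes, with 5 and 3 UMIs, is limited by depth.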
